A study of Mus musculus with 4 samples.

Results

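Open chromatin was examined at 8 mucin genes: Muc1, Muc2, Muc4, Muc5ac, Muc5b, Muc6, Muc13 and Muc16. The genes were taken by name, and every interval that overlapped a gene or lay within 10 kb of it in mm10 was counted for it. These rules gave 16 of the 61972 regions of the series, at 5 of the 8 genes. The samples were lung tumours of C57B6J mice aged 55 weeks, measured by ATAC-seq, in which a transposase cuts and tags accessible DNA. All 4 samples carried KrasLA1/+ by their genotype labels. The KrasLA1 group (n = 2) had no further allele in its genotype label. The KrasLA1;Dicer1S2D group (n = 2) was KrasLA1/+;Dicer1S2D/+ and so also had 1 copy of Dicer1S2D, a form of the microRNA-processing enzyme Dicer1 in which aspartate replaces serine to mimic phosphorylation. Replicate 1 of each group was a female and replicate 2 a male, so replicate number and sex cannot be told apart. The labels do not say whether a sample pooled several tumours, and p-values measure only the spread between these samples.

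The measurement is the position of each peak that the authors called in each library, without a height, score or read count. A peak is called or not called, and the sequencing depth is unknown. The libraries held 34767 to 50282 peaks with a median width of 410 to 534 bp. Peak number was 42524.5 ± 10970.8 (SD, n = 2) in KrasLA1;Dicer1S2D and 43137.5 ± 2144.65 (SD, n = 2) in KrasLA1, with p = 1 by an exact two-sided permutation test whose smallest possible p is 0.333. The tissue label was checked against marker genes, by a peak within 2 kb of an end of the gene. All 8 alveolar type 2 genes (Sftpc among them) and all 6 epithelial genes had such a peak in every library. The 4 endothelial genes, which include Pecam1, had 0 in every library. Of 5 leukocyte genes 1 to 3 had one, of 4 airway genes 3 in every library, and of 3 fibroblast and smooth muscle genes 2 in each KrasLA1 and 1 in each KrasLA1;Dicer1S2D library, the difference being Acta2. The part of cell makeup in the results was not tested, and in bulk tissue fewer cells of a type and fewer open copies per cell cannot be told apart.

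Mucins are large glycoproteins whose serine- and threonine-rich stretches carry dense O-linked sugars. Gel-forming mucins (Muc2, Muc5ac, Muc5b, Muc6) are secreted, join into polymers and make up mucus, and their genes lie side by side in a cluster. Membrane mucins (Muc1, Muc4, Muc13, Muc16) stay on the apical surface of epithelial cells, where they form a barrier and have roles in signalling. In the lung MUC5AC and MUC5B are products of airway secretory cells. Muc6 and Muc5ac are the mucins of gastric gland and pit mucous cells and Muc2 is that of intestinal goblet cells. Mucin loci bear on the gastric cell fate that the title of the study speaks of.

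The promoters of Muc1, Muc2 and Muc4 are shown because their peak calls differ: Muc1 lay in a peak in 3 of 4 libraries, Muc2 in 0, and Muc4 had a peak in all 4 libraries just past this window. Each sequence is that of RefSeq (GRCm38.p6, the build of mm10), 250 bases before to 50 after the start of the gene, 5′ to 3′ on the plus strand. The positions are chr3:89228806-89229105 for Muc1, chr7:141690090-141690389 for Muc2 and chr16:32735636-32735935 for Muc4. Capitals mark the matches to the 7 motifs spelled out after the sequences.
Muc1: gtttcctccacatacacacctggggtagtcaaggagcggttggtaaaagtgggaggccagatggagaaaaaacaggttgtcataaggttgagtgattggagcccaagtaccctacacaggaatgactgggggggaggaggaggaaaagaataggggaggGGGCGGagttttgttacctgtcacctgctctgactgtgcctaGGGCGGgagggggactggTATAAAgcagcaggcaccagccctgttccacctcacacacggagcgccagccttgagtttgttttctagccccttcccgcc
Muc2: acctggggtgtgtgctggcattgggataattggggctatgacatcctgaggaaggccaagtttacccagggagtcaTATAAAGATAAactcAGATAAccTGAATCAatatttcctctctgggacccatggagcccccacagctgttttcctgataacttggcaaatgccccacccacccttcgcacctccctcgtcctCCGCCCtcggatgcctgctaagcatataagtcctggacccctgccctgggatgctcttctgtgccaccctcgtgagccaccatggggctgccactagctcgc
Muc4: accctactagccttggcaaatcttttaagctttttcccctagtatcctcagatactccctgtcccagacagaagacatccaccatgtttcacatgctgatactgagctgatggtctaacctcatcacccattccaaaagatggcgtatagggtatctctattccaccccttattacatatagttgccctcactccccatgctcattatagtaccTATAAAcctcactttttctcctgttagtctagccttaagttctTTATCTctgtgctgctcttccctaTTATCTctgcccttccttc
Motifs were searched on both strands. Those of general promoters were the TATA box, spelled TATAAA, and the GC box, spelled GGGCGG. The others were named for the factor families that read them: TGANTCA for AP-1, TGTTTAC for forkhead factors, CCGGAA for ETS factors, CAAGTG for NKX2-1 and AGATAA for GATA factors. The Muc1 window held a TATA box at -31 and GC boxes at -91 and -49, counted from the start of the gene. Among 21263 promoters of protein-coding genes, 12.6% had the TATA box and 46.2% the GC box. The Muc2 window held the letters of the TATA box at -174, farther from the start than at Muc1, and they shared a base with a GATA match at -169. It also held a GATA match at -159, an AP-1 match at -151 and a GC box at -52. GATA letters occurred in 9.65% and AP-1 letters in 6.99% of promoters. The Muc4 window held a TATA box at -36 and GATA matches at 8 and 32. Forkhead letters occurred in 3.01%, ETS letters in 18.7% and NKX2-1 letters in 13.1% of promoters, and in 0 of these 3 windows. Of the mucin windows not printed, that of Muc6 held NKX2-1 letters at -65 and GATA letters at -194. The first Muc13 window held AP-1 letters at -61. The second held AP-1 letters at -179 and NKX2-1 letters at -148. The Muc16 window held 0 of the motifs. A match is a run of letters and not evidence of binding.

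Muc1 and Muc2 had almost the same base composition at the start of the gene. GC content was 55.7% at Muc1 and 55.3% at Muc2, against a median of 56.3% over all promoters. Both held 6 CpG, at 0.27 times the number expected from their bases, and the median promoter had 0.57. At Muc4 GC content was 43.7% with 1 CpG. The Muc6 window (56.7% GC, 6 CpG) was also without a peak in every library, as were that of Muc16 (46.7% GC, 1 CpG) and both windows of Muc13 (46.3% and 47.0% GC). Of all promoters 46.2% lay in a peak in all 4 libraries and 45.8% in 0. Among those under 50% GC, 11.4% lay in a peak in all 4 and 83.1% in 0. Muc1 was the only one of the 6 mucin genes with a promoter in the table whose window lay in a peak in any library. Muc5ac and Muc5b were described from the ends of their genes.

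Of the 16 mucin regions, 6 were called in all 4 libraries, 5 in 3, 3 in 2 and 2 in 1. Over all 60713 autosomal regions 43.5% were called in 4 libraries, 12.2% in 3, 16.6% in 2 and 27.7% in 1. The libraries called 10 (KrasLA1 replicate 1), 14 (KrasLA1 replicate 2), 13 (KrasLA1;Dicer1S2D replicate 1) and 10 (KrasLA1;Dicer1S2D replicate 2) of the 16. The groups overlapped, with the highest count in a KrasLA1 tumour and the lowest shared by a tumour of each genotype. The mean was 11.5 ± 2.12 (SD, n = 2) with Dicer1S2D and 12 ± 2.83 (SD, n = 2) without it, which differ by -0.5 regions (p = 1, exact two-sided permutation test). The sign turned to 0.5 within gene bodies alone, to 1.5 without KrasLA1 replicate 2 and to 1 without KrasLA1;Dicer1S2D replicate 2. KrasLA1 replicate 2 called 87.5% of the mucin regions and 71.8% of all autosomal regions. The other libraries called 62.5% and 66.0% (KrasLA1 replicate 1), 81.2% and 78.8% (KrasLA1;Dicer1S2D replicate 1) and 62.5% and 54.9% (KrasLA1;Dicer1S2D replicate 2) of mucin and autosomal regions.

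**Figure D1:**
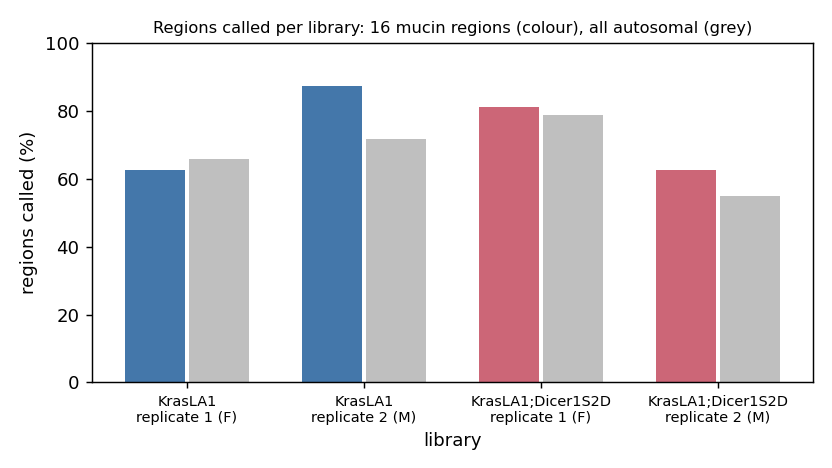
Percent of regions called (y axis) in each library (x axis; F, female; M, male) for the 16 mucin regions (coloured bars, blue KrasLA1, red KrasLA1;Dicer1S2D) and for all 60713 autosomal regions (grey bars). Mucin regions ranged from 62.5% to 87.5% and autosomal regions from 54.9% to 78.8%, with tumours of both genotypes high and low.

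Regions that every library called were the wider ones. The 6 mucin regions called in 4 libraries were 469 to 1198 bp wide (median 691.5 bp), and the 10 others were 174 to 790 bp wide (median 384.5 bp). Medians over autosomal regions were 789.5 bp and 327 bp in the same order. A region's width grows with the number of peaks merged into it. Single peaks gave medians of 539 bp (25 peaks) and 257 bp (23 peaks). The narrowest peak anywhere in a library was 155 to 184 bp, and the narrowest mucin peak was 174 bp.

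**Figure D2:**
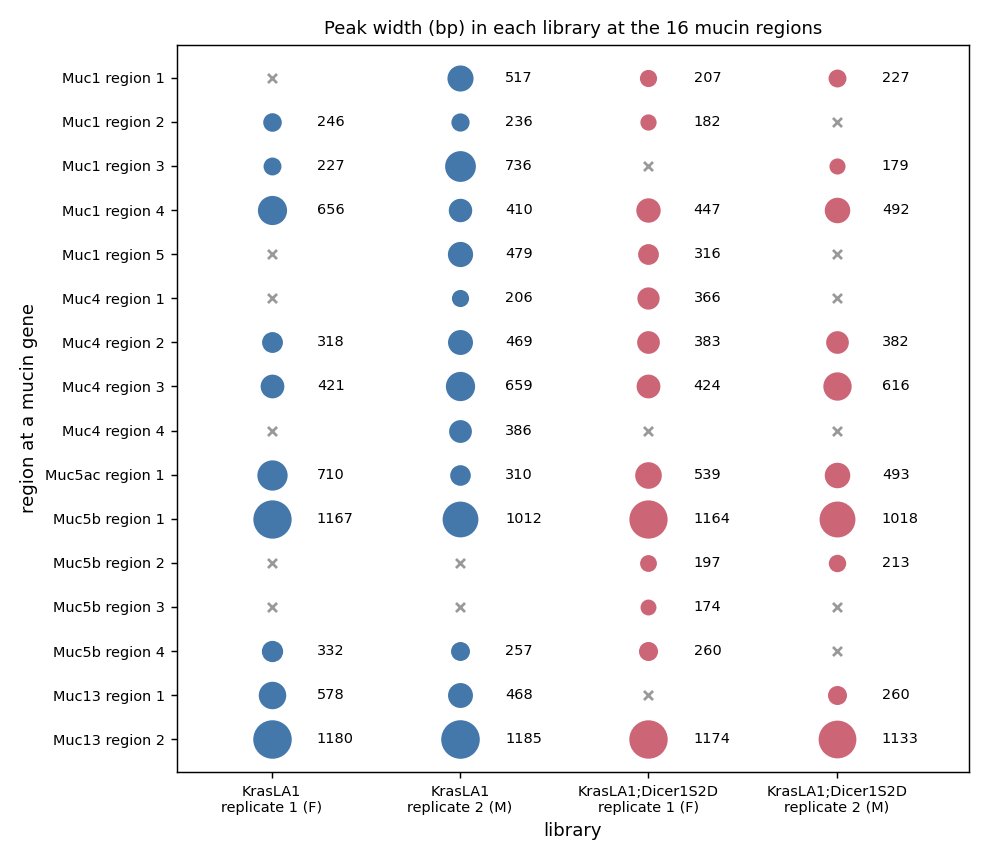
Peak width in bp (number and area of each disc) at the 16 mucin regions (y axis, numbered by position within a gene) in each library (x axis; blue KrasLA1, red KrasLA1;Dicer1S2D; F, female; M, male); a grey cross means no peak, and width is summed where a library had 2 peaks in a region. At Muc5b region 2 peaks of 197 and 213 bp stood in both KrasLA1;Dicer1S2D libraries and in 0 KrasLA1 libraries, and Muc5b region 1 and Muc13 region 2 had 1012 bp or more in every library.

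At gel-forming mucins 1 region was gained, at the lower end of Muc5b, and 0 were lost. Gained means a peak in each library with Dicer1S2D and in none without it, and lost means the opposite. The 8 mucin genes together thus had 1 gained region of 16, where 0.596% of autosomal regions were gained and 1.42% lost. Of the 8 mucin genes 5 had a region called in 4 libraries, beside 67.0% of all autosomal genes. These were all 5 of those with a region, beside 87.2% of autosomal genes with a region. At Muc13 this region was the one that covered the promoter of Itgb5. By gene the gain was 1 of the 5, beside 1.78% of 15882 autosomal genes with a gained and 4.87% with a lost region. The smallest exact p for 2 against 2 libraries, 0.333, leaves a single region without a usable test.

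Muc5b, the main gel-forming mucin of airway mucus (chromosome 7, 141839059 to 141873089), had 4 regions. The first, 1198 bp wide (141835541 to 141836738), lay 2321 bp below the gene and was the widest of the 16. Its peaks measured 1167 bp in KrasLA1 replicate 1, 1012 bp in KrasLA1 replicate 2 and 1164 bp in KrasLA1;Dicer1S2D replicate 1. In KrasLA1;Dicer1S2D replicate 2 the region was split into peaks of 724 and 294 bp. The groups overlapped, and in the 3 libraries with a single peak 85.8% to 96.1% of peaks were narrower. The gained region (141838877 to 141839106, 230 bp) spanned the lower end of Muc5b. Counted from this end, its peak ran from -182 to 14 bp (197 bp) in KrasLA1;Dicer1S2D replicate 1 and from -165 to 47 bp (213 bp) in KrasLA1;Dicer1S2D replicate 2. Only 10.8% and 9.89% of the peaks of these libraries were narrower. The region was no longer gained with the widest 75% of peaks, with equal numbers of widest peaks or with peaks of at least 200 bp, each of which removes narrow peaks. The third region (141840439 to 141840612, within the gene) was 174 bp wide and was called in KrasLA1;Dicer1S2D replicate 1 alone, the library with the most peaks. The fourth (141845771 to 141846102, within the gene) had peaks of 332 and 257 bp in KrasLA1 replicates 1 and 2 and 260 bp in KrasLA1;Dicer1S2D replicate 1, and none in KrasLA1;Dicer1S2D replicate 2, the library with the fewest peaks. No other protein-coding gene lay within 10 kb of the Muc5b regions.

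Muc5ac, the mucin of gastric pit cells and airway goblet cells (chromosome 7, 141788958 to 141819227), had 1 region, which was called in every library. It spanned the lower end of the gene (141788758 to 141789467). Peak width was 710 bp in KrasLA1 replicate 1, 310 bp in KrasLA1 replicate 2, 539 bp in KrasLA1;Dicer1S2D replicate 1 and 493 bp in KrasLA1;Dicer1S2D replicate 2. The KrasLA1 tumours held both the widest and the narrowest peak, with the KrasLA1;Dicer1S2D tumours between them. All 4 peaks shared 310 bp (141788848 to 141789157), the whole of the narrowest peak. Muc5ac had 1 region where the median autosomal gene had 2.

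Muc2 and Muc6 had 0 regions in every library. Muc2 spans 64352 bp (chromosome 7, 141690340 to 141754691) and Muc6 21935 bp (chromosome 7, 141633459 to 141655393). Both lay in 1 stretch of 203.0 kb without a region (141562775 to 141765764), between a region in Ap2a2 called in all 4 libraries and a region called in KrasLA1 replicate 1 alone. Among 60694 autosomal stretches between neighbouring regions, 2.85% were longer and the median was 11.5 kb. A stretch picked for holding genes without a region has to span them, so its rank is not a test. The cluster of gel-forming genes was thus divided: 0 regions in its first 132306 bp and 6 from there to the end of Muc5b. An uncalled gene is not shown to be closed, since the threshold and depth behind the calls are unknown.

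Membrane mucins held 11 of the 16 regions, 5 of them at Muc1, 4 at Muc4, 2 at Muc13 and 0 at Muc16. The libraries called 7 (KrasLA1 replicate 1), 11 (KrasLA1 replicate 2), 8 (KrasLA1;Dicer1S2D replicate 1) and 7 (KrasLA1;Dicer1S2D replicate 2) of them, and 0 were gained or lost. KrasLA1 replicate 2 stood above the rest, while the other KrasLA1 tumour was level with a KrasLA1;Dicer1S2D tumour. The gel-forming genes had 3, 3, 5 and 3 of 5 regions called in the same order of libraries. Mean differences were -1.5 regions for membrane and 1 for gel-forming mucins (exact two-sided permutation test, p = 1 for each), and the difference between these classes was not tested. For gel-forming genes every split of these counts gives the same absolute difference, so that test could give no other p. The 8 regions within 10 kb of a further protein-coding gene were all at membrane mucins and had a mean difference of -1.5. The 8 regions near no such gene had 1. The part of neighbouring genes in the class values was not tested.

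Muc1, a membrane mucin found on most epithelia and long used as a tumour antigen (chromosome 3, 89229056 to 89233381), is a short gene of 4326 bp. With the 10 kb on either side counted in its length, it had 20.6 regions per 100 kb. The median over autosomal genes by the same measure, those without a region included, was 4.35. The libraries called 3, 5, 4 and 3 of the 5 Muc1 regions (KrasLA1 replicates 1 and 2, then KrasLA1;Dicer1S2D replicates 1 and 2). Neighbouring genes are close, and all 5 regions lay within 10 kb of Thbs3, Trim46 or Krtcap2 too, so they cannot be given to Muc1 alone. The region at the start of Muc1 (89228729 to 89229464) covered the promoter sequence printed above. Counted from the start, its peak ran from -172 to 54 bp in KrasLA1 replicate 1 (227 bp) and from -327 to 408 bp in KrasLA1 replicate 2 (736 bp). In KrasLA1;Dicer1S2D replicate 2 it ran from -172 to 6 bp (179 bp), and KrasLA1;Dicer1S2D replicate 1 had none. The TATA box at -31 and both GC boxes lay inside all 3 peaks. The peak of 179 bp was among the narrowest of its library, where 2.07% were narrower, and the region was lost with peaks under 200 bp removed or without this library.

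Upstream of Muc1 were a region 1162 bp and a region 577 bp before the start. The farther one (89227378 to 89227894) had peaks of 517 bp in KrasLA1 replicate 2, 207 bp in KrasLA1;Dicer1S2D replicate 1 and 227 bp in KrasLA1;Dicer1S2D replicate 2, and none in KrasLA1 replicate 1. It counted as gained without KrasLA1 replicate 2, which then leaves no KrasLA1 peak there. The nearer one (89228234 to 89228479) had peaks of 246 and 236 bp in KrasLA1 replicates 1 and 2, 182 bp in KrasLA1;Dicer1S2D replicate 1 and none in KrasLA1;Dicer1S2D replicate 2. It counted as lost with peaks of at least 200 bp and without KrasLA1;Dicer1S2D replicate 1. Each of these regions missed a single library, and not the same one. At the far end of Muc1 a region (89233376 to 89234038) was called in all 4 libraries, with peaks of 656, 410, 447 and 492 bp and 410 bp shared by all. This region lay 131 bp from Trim46. The last, in Trim46 and 5087 bp from Muc1 (89238468 to 89238946), had peaks of 479 bp in KrasLA1 replicate 2 and 316 bp in KrasLA1;Dicer1S2D replicate 1 alone.

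Muc4, a large membrane mucin of airway and other epithelia (chromosome 16, 32735886 to 32782391), had 2 regions within the gene in every library. The first (32736016 to 32736484) began 130 bp past the start. Its peaks measured 318 bp in KrasLA1 replicate 1, 469 bp in KrasLA1 replicate 2, 383 bp in KrasLA1;Dicer1S2D replicate 1 and 382 bp in KrasLA1;Dicer1S2D replicate 2, and 318 bp were common to all. The second (32745747 to 32746419), about 10197 bp from the start, had peaks of 421, 659, 424 and 616 bp in the same order, with 387 bp in common. At both, the KrasLA1 tumours held the narrowest and the widest peak. A region 7183 bp before the gene (32728321 to 32728703) had peaks of 206 bp in KrasLA1 replicate 2 and 366 bp in KrasLA1;Dicer1S2D replicate 1. A region in the neighbouring mucin gene Muc20, 3458 bp past Muc4 (32785849 to 32786234), had a peak of 386 bp in KrasLA1 replicate 2 alone.

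Muc13, a membrane mucin best known from stomach and intestine (chromosome 16, 33794037 to 33819929), had no peak within the gene or at either of its starts in the promoter table. The region 529 bp past its far end (33820458 to 33821247) had peaks of 578 bp in KrasLA1 replicate 1, 468 bp in KrasLA1 replicate 2 and 260 bp in KrasLA1;Dicer1S2D replicate 2. KrasLA1;Dicer1S2D replicate 1 had none there, and with only the widest 75% of peaks the region was lost. The second region (33829337 to 33830521), 9408 bp away, was the one just inside the 10 kb limit and covered the promoter of Itgb5, an integrin beta subunit. It was called in every library at 1180, 1185, 1174 and 1133 bp, a narrower spread than at the other 5 regions called in all 4. Just outside the limit lay regions 10200 and 10224 bp from Muc1 and, at 11074 bp, 1 beyond Muc2.

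Muc16, which encodes the tumour antigen CA125 (chromosome 9, 18495445 to 18674821), had 0 regions in every library although it spans 179377 bp. It lay in a stretch of 1.148 Mb without a region (18473977 to 19621801) that held 21 protein-coding genes, 19 of them olfactory receptor genes. Of autosomal stretches 0.356% were longer, but a stretch picked for holding a long gene without a region has to be long. No region at all was found at 4783 of 20665 autosomal protein-coding genes (23.1%) and at 513 of 4725 of those of at least 50 kb (10.9%). The mucins without a region were 3 of 8.

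**Figure D3:**
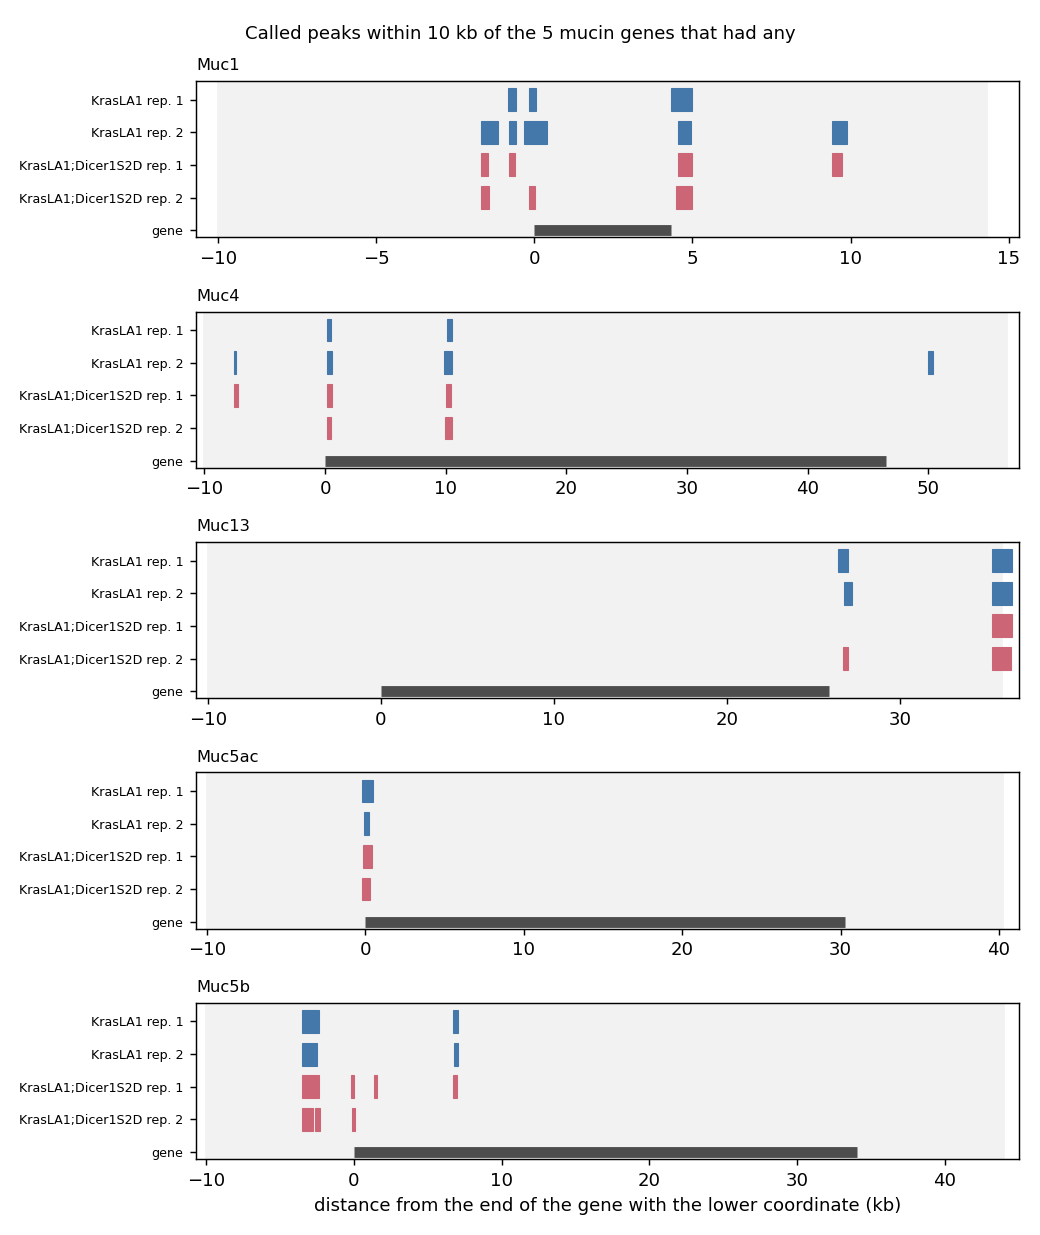
Peaks of each library (coloured bars, blue KrasLA1, red KrasLA1;Dicer1S2D) and the gene (dark bar) along the distance in kb from the end of the gene with the lower coordinate (x axis), with 10 kb on either side shaded; Muc2, Muc6 and Muc16 had no peak. Peaks of all 4 libraries stand at the lower end of Muc5ac, within Muc4 and below Muc5b, and 2 short peaks of KrasLA1;Dicer1S2D stand at the lower end of Muc5b.

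The length covered by peaks in a gene and 10 kb around it combines the number and width of its peaks, and was compared by limma over the 16361 protein-coding genes with a peak in any library. The 5 mucin genes with a peak entered the fit. At Muc1 it was 1129 and 2378 bp in KrasLA1 and 1152 and 898 bp in KrasLA1;Dicer1S2D, and at Muc4 739 and 1720 bp against 1173 and 998 bp. In both, KrasLA1 replicate 2 was highest and the groups overlapped. At Muc5b it was 1499 and 1269 bp against 1795 and 1231 bp, also with overlap. At Muc13 it was 1166 and 1061 bp against 593 and 853 bp. This length takes in the peak at the Itgb5 promoter up to the 10 kb limit. That peak gave the whole 593 bp of KrasLA1;Dicer1S2D replicate 1. The rest came from the region past the far end of Muc13, with 578 and 468 bp in KrasLA1 and 0 and 260 bp in KrasLA1;Dicer1S2D. Muc13 was the 1 of 5 whose groups did not overlap, and 27.6% of all genes tested were lower in KrasLA1;Dicer1S2D without overlap, so this is near the background. In the other direction it was 0 of 5, beside 1.98% of all genes.

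No mucin gene passed the test. On the scale of log2(bp + 100), centred on the median gene of each library, KrasLA1;Dicer1S2D minus KrasLA1 was -0.47 ± 0.338 (SE) for Muc1 and -0.40 ± 0.338 for Muc13. It was 0.11 ± 0.368 for Muc4, 0.27 ± 0.468 for Muc5ac and 0.28 ± 0.263 for Muc5b. The limma adjusted p was 1 for each, after Benjamini and Hochberg over all 16361 genes. The median of the 5 was 0.11, and that of all genes 0.01. Over all genes 0.0% were called higher and 0.0% lower, with 269 at an unadjusted p under 0.05, of which 0 were mucin genes. Without centring, which moves the median of all genes to -0.17, the difference for Muc4 was -0.06. Single libraries moved every value. Leaving out KrasLA1 replicate 1 gave -0.86 for Muc1, -0.34 for Muc4, 0.87 for Muc5ac, 0.50 for Muc5b and -0.23 for Muc13, and leaving out KrasLA1 replicate 2 gave -0.07, 0.56, -0.33, 0.05 and -0.58. Among the KrasLA1;Dicer1S2D libraries, leaving out replicate 1 gave -0.04 for Muc13 and leaving out replicate 2 gave -0.76. Within the gene body alone Muc1 gave -1.31 and Muc5b -0.30. With a library left out 1 group holds a single library, so only the differences are given for those fits.

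**Figure D4:**
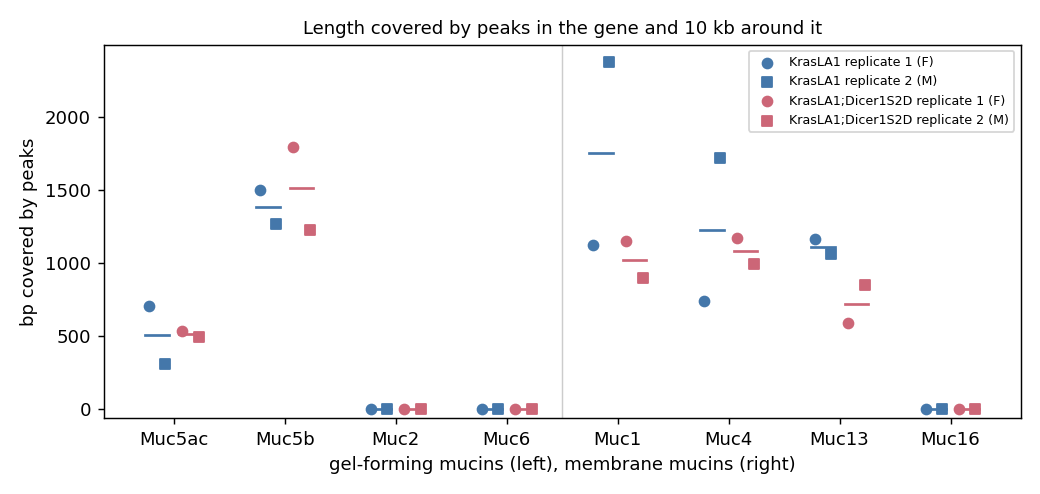
Length in bp covered by peaks (y axis) in each mucin gene and 10 kb around it (x axis), 1 point per library (blue KrasLA1, red KrasLA1;Dicer1S2D; circles female, squares male) with a line at each mean of 2. The groups overlap at Muc5ac, Muc5b, Muc1 and Muc4, and Muc2, Muc6 and Muc16 are at 0. Muc13 runs from 593 to 1166 bp, which includes part of the peak at the Itgb5 promoter.

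Other genes of mucin biology were examined by the same calls. Among 10 other mucin and mucin-like genes 6 had a region, 2 had one called in all 4 libraries, and 0 had a gained or lost one. Mucl3 had 6 regions, of which the libraries called 3, 6, 5 and 4. Mcam, listed here though an adhesion molecule of vessel cells and melanoma and not a mucin, had 4. Of these the libraries called 0, 4, 2 and 1, and KrasLA1 replicate 2 was highest at both genes. Over this list the libraries called 7, 15, 11 and 7 of 17 regions. Muc20 is in the list, so the region past Muc4 that lies in Muc20 is counted both here and at Muc4. It was called in KrasLA1 replicate 2 alone. The 23 genes of O-glycosylation, whose enzymes start and extend the sugar chains of mucins, all had a region, and 19 had one called in all 4 libraries. Over autosomal genes 76.9% had a region, and 87.2% of those had one called in all 4. The libraries called 68, 65, 87 and 51 of their 103 regions. Galnt2, which starts O-linked chains, was the 1 gene of this list with lost regions, at 124264362 to 124264685 and 124279031 to 124279405 within the gene on chromosome 8, and 0 had a gained one. Of its 12 regions the libraries called 8, 12, 6 and 6, counts that include the 2 lost regions it was named for.

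Of 16 mucous cell genes 9 had a region, fewer by share than the 76.9% of autosomal genes, and each of the 9 had one called in all 4 libraries, beside 87.2%. The libraries called 33, 33, 35 and 23 of their 41 regions. Spdef, a transcription factor of goblet cells, had a lost region of 548 bp within the gene (chromosome 17, 27728497 to 27729044) and Creb3l1, a transcription factor of the secretory pathway, had 1 of 359 bp at 3981 bp from the gene (chromosome 2, 92028151 to 92028509), and 0 genes had a gained one. Foxa3, a forkhead factor of goblet cells, had 4 of 4 regions called in every library. Agr2, a protein disulphide isomerase needed to fold mucins, had 3 regions, called as 2, 1, 3 and 1. The trefoil factor genes Tff1, Tff2 and Tff3, whose peptides are secreted with mucins, had 0 regions, as had Clca1, Agr3, Ern2 and Scgb3a1. Zg16 and Fcgbp went the other way, with 2 regions and 1, all called in every library. Creb3l4 had 4 regions, called as 3, 4, 4 and 3. Bpifb1 had 5, called as 4, 4, 3 and 3, and Pdia5 had 5, called as 5, 3, 5 and 3. The 3 lists held 38 genes with a region, 3 of them with a lost region and 0 with a gained one, beside 4.87% and 1.78% of autosomal genes with a region.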

How the data were processed

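Peaks of 4 ATAC-seq libraries were deposited by the authors as intervals. Per the file headers there are 5 tracks on mm10, namely 1 for each library and 1 that merges them. Tools in the submitters' processing notes are MACS3 3.0.0, which calls peaks, BWA 0.7.12, an aligner, and deepTools 3.5.1. Not given in the sources used here: settings, thresholds, filters, read shift and read number. The intervals carry no height or count, so no test on counts was possible. Depth being unknown, no interval or floor is given.

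Libraries were matched by the number in the interval names. Peaks that overlapped by 1 bp or more were merged, which returned the authors' 61972 regions, and 0 columns were of other samples. Genes and promoters came from RefSeq tables for GRCm38.p6 (21887 protein-coding genes); coordinates are counted from 1. Of 50 symbols in the 3 other lists 49 matched, all but Mucl1. Counts per library were tested by two-sided exact permutation, and covered length with limma 3.58.1 in R 4.3.3 (pseudocount 100 bp, threshold 0.05, genes without a peak left out). Python 3.11.15, numpy 2.4.6 and matplotlib 3.10.9 were used, and the steps were tested on simulated data. For the limma fit, recovery of changed genes was required only at noise below that of these data. It therefore does not show what the fit could detect here. The members, lists and alternatives were chosen with earlier results of these data known. All 8 mucin genes are named, and of each other list up to 4 genes per direction with a gained or lost region. List genes without one that are given with values (Mucl3, Mcam and the other mucous cell genes) were named after their values were seen. Motifs were chosen after the peak calls.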

Additional observations from a re-analysis of the deposited data

Results flagged for a closer look

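The difference between genotypes had opposite signs in the female and male tumours for 3 counts, with 1 library per genotype and sex, and the difference between the sexes was not tested. For the number of mucin regions called, KrasLA1;Dicer1S2D minus KrasLA1 was 3 in the females (replicate 1) and -4 in the males (replicate 2). For Muc1 regions it was 1 and -2, and for Muc4 regions 1 and -2, in the same order. The number of peaks in the whole library moved the same way, by 8661 in the females and -9887 in the males, and its part in these counts was not tested.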

How the results depend on the processing

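The number of gained mucin regions (1) was 0 with the widest 75% of peaks, with equal numbers of widest peaks and with peaks of at least 200 bp, and 1 to 2 with single libraries left out. It was 2 without KrasLA1 replicate 2 (the region 1162 bp before Muc1 joined) and 2 without KrasLA1;Dicer1S2D replicate 2. The number of lost mucin regions (0) was 1 with the widest 75% of peaks, 2 with peaks of at least 200 bp, 1 with a window of 25 kb and 0 to 2 with single libraries left out: 1 without KrasLA1 replicate 1, and 2 without either KrasLA1;Dicer1S2D replicate (regions of Muc1 and Muc5b without replicate 1, of Muc1 and Muc13 without replicate 2). The width settings remove narrow peaks by construction, the wider window adds regions, and with a library left out fewer have to meet the rule. Shares of all autosomal regions gained or lost under these settings are not given. Whether the mucin counts moved with those shares therefore cannot be told. The difference in mucin regions called (-0.5) was 0 with gaps up to 500 bp merged, 0.5 in gene bodies alone and -2.5 to 1.5 with single libraries left out (1.5 without KrasLA1 replicate 2, 1 without KrasLA1;Dicer1S2D replicate 2); the cause was not tested. Mucin genes called by limma were 0 under every alternative that kept all 4 libraries. In each of these limma also called 0 of all the genes fitted, so this 0 is not particular to mucins. Signs of the limma log2 difference turned for Muc4 (-0.064 without centring, and -0.34 to 0.56 with single libraries left out), Muc5ac (-0.33 to 0.87 with single libraries left out) and Muc5b (-0.30 in the gene body alone). Muc13 had no value in the gene body alone, where it had no peak. With replicate number as a block, limma called 0 mucin genes and 0 of all 16361 genes. Libraries of the same number deviated together across genes (r = 0.21 over 16361 genes), but the numbers are not stated to pair the samples.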

Other observations

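Muc1 was the mucin gene with the most regions called in some but not all libraries. Its regions were called at 60%, 100%, 80% and 60% in KrasLA1 replicates 1 and 2 and KrasLA1;Dicer1S2D replicates 1 and 2. Of 3888 genes with at least 5 regions and none in common with it, 19 had exactly these shares, and the first by the fixed order were Arhgef19, Birc3 and Elf4, with 5 regions each.

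The stretch between Muc2 and Muc5ac held 1 region, of 333 bp (chromosome 7, 141765765 to 141766097), which was called in KrasLA1 replicate 1 alone and lay beyond the 10 kb limit of either gene.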
